A study of Mus musculus with 8 samples.

Results

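The genes described here are 51 mouse genes of lipogenesis, fatty acid uptake and lipid droplets, named as a list because the CB1 receptor of the hepatocyte is known to drive lipogenesis. They were found by the accession of each array probe, and all 51 had a probe among the 21368 genes named on the array. Of these, 43 had a probe that stood well above background on all 8 arrays and 46 had one on 4 or more, and those 46 were tested together with the other genes, 11072 in all.

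Hepatocyte RNA was measured in 4 hepatocyte-specific CB1 receptor knockout mice (hCNR1-/-) and 4 control mice (hCNR1+/+), 1 one-colour Agilent array per mouse. All were males of 12 to 14 weeks on a standard diet, with no further treatment named in the labels, and came from crosses of albumin-Cre mice with CNR1flox/flox mice, in which the albumin promoter directs the recombinase to hepatocytes while other liver cells keep the receptor. The strain label is CNRO Alb-Cre for hCNR1-/- and CNRO for hCNR1+/+ mice, so the effects of the recombinase and of the deletion cannot be told apart. On the slide the controls filled row 1 and the knockouts row 2, and the effect of the row cannot be told apart from that of genotype either. The Cnr1 probe was well above background on 0 of 8 arrays, so on these arrays the genotype rests on the labels. The study also reports Cnr1 mRNA in isolated hepatocytes of both genotypes, and its methods describe PCR assays for the receptor.

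The liver makes fatty acids from citrate-derived acetyl-CoA when carbohydrate is plentiful, under the transcription factors SREBP-1 and ChREBP, then desaturates and elongates them and joins them to glycerol as triglyceride. Triglyceride is stored in droplets, whose coat proteins control how droplets grow, fuse and give up their fat to lipases. Endocannabinoids acting on the hepatocyte CB1 receptor are known to raise lipogenic gene expression, in particular under a high-fat diet.

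All 21 hepatocyte marker genes passed the filter on background and were tested. The 75th percentile of the spot intensity, by which each array was scaled, ran from 29.3 in hCNR1-/- replicate 4 to 139 in hCNR1+/+ replicate 2, and the share of spots well above background from 28.6% to 42.3%. In each genotype the array of replicate 4 had the lowest percentile. Values below are log2 signal relative to the 75th percentile of the array. They are compared between mice for 1 probe only, except the summed signals of marker lists. The mice of a genotype are always in the order of replicates 1 to 4. In these bulk samples, fewer cells of a type and less RNA per cell cannot be told apart.

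Of the 46 tested genes, 1 fell in hCNR1-/- hepatocytes at an adjusted p below 0.05 in limma, Hsd17b13, and 2 rose, Cidec and Elovl6. These are 2.17% and 4.35% of the tested genes of the list, against 1.30% of all tested genes that fell and 2.94% that rose. At a fold change above 2 with an unadjusted p below 0.05, the threshold of the study, 1 gene was lower and 3 were higher, with Fabp2 the addition. These are 2.17% and 6.52% of the list, against 3.75% and 4.78% of all genes. Over the whole array, 415 genes were lower and 529 higher here. The study reports far more genes lower than higher at its threshold, and the cause of that difference was not tested. The 4 arrays of each genotype did not overlap for the same 1 lower and 3 higher genes. That is again 2.17% and 6.52% of the list, against 5.04% and 12.7% of all genes. The counts are thus small. The shares of the list lay above those of all genes at the adjusted threshold and below them for groups without overlap. On balance, 28 of the 46 were lower (60.9%, beside 43.4% of all tested genes) and 18 higher. The median log2 fold change was -0.10, beside 0.08 over all tested genes. Without replicate 4 of both genotypes, 18 were lower and 28 higher. For 22 of the 46 genes, the 95% interval of the log2 fold change lay inside a 2-fold change in either direction, Fasn, Dgat2, Pnpla2, Plin5 and the brighter probe of Mlxipl among them.

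**Figure D1:**
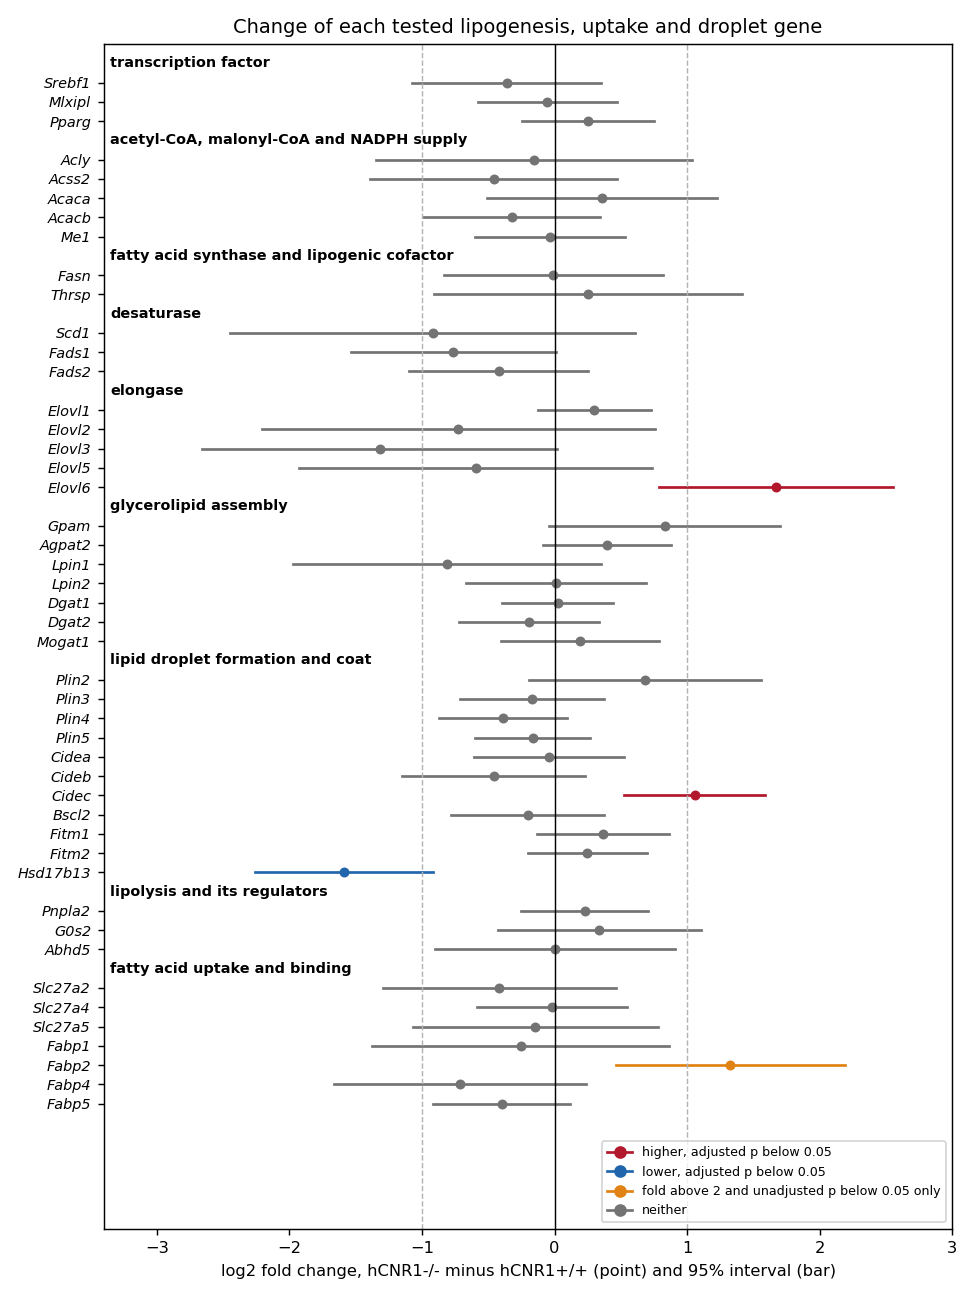
Log2 fold change (hCNR1-/- minus hCNR1+/+, horizontal axis) of the 46 tested genes in the order of their roles, as points with 95% intervals from limma; dashed lines mark a 2-fold change. Hsd17b13 lies at -1.59, Cidec at 1.06, Elovl6 at 1.67 and Fabp2 at 1.33, and the intervals of the other genes cross 0.

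The upstream windows of the genes that passed the adjusted test, and of Mlxipl, whose probes went apart, are shown for what they hold near the start of transcription. Each is the 250 bases before a RefSeq start on the assembly GRCm38.p6, 5′ to 3′ on the strand of the gene. Capitals mark matches, on either strand, to an E-box (CACGTG, the core that ChREBP and USF factors bind) or to the sterol element TCACNCCAC that SREBP proteins bind.
Hsd17b13, chr5:103977389-103977638 (- strand): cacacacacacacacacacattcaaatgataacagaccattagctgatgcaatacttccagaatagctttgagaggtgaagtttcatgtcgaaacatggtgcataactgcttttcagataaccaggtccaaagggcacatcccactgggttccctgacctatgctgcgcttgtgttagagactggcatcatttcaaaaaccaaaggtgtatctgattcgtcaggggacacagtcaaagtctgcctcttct
Elovl6, chr3:129532136-129532385 (+ strand): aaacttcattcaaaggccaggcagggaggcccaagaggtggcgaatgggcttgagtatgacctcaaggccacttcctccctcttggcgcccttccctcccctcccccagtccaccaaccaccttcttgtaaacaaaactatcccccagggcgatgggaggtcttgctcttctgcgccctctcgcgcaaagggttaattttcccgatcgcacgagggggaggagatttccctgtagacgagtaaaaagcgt
Cidec, start farther upstream, chr6:113435761-113436010 (- strand): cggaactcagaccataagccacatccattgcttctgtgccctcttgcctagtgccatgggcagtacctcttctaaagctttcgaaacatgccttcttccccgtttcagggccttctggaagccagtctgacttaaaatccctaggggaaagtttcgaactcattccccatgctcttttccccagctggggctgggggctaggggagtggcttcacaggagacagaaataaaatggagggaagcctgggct
Cidec, start farther downstream, chr6:113434765-113435014 (- strand): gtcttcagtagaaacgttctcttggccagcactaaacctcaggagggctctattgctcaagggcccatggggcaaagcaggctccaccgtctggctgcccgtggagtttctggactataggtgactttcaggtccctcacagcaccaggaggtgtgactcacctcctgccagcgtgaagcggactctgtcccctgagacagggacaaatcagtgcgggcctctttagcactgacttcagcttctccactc
Mlxipl, start farther upstream, chr5:135089640-135089889 (+ strand): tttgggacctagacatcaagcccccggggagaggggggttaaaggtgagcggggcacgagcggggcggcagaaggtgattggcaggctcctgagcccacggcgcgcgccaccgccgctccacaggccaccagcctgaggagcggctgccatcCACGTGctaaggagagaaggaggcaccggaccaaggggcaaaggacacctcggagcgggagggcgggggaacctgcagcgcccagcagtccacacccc
Mlxipl, start farther downstream, chr5:135106641-135106890 (+ strand): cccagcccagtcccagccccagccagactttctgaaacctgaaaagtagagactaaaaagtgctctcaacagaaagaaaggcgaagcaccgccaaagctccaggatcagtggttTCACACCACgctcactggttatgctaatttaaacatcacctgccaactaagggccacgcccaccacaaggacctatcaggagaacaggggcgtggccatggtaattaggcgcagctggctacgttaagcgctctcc

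The E-box stood in 6.02% of the 32851 windows of all genes, and the sterol element in 1.05%. The direct repeat that PPAR and HNF4 factors bind, AGGNCA and AGGNCA with 1 base between, stood in 0.338%. Of the 51 genes, 41 had windows, 57 in all. The E-box was found at Elovl5, Lipe, Lpin2, Mlxipl and Pnpla5, the sterol element at Mlxipl, and the direct repeat at Elovl1 and Fabp1. In that order these are 8.77%, 1.75% and 3.51% of the 57 windows. None of these letters occurred in the windows of Hsd17b13, Elovl6 and Cidec. At Mlxipl the E-box lay before the start farther upstream, and the sterol element before the start 17001 bases downstream. A match is a run of letters and says nothing of a bound factor.

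Hsd17b13 encodes a protein of the hepatocyte lipid droplet. Its signal was 5.94, 5.06, 5.41 and 4.99 in controls and 4.19, 4.09, 3.46 and 3.31 in hCNR1-/- mice. Every hCNR1-/- mouse lay below every hCNR1+/+ mouse. The mean went from 5.35 ± 0.44 to 3.76 ± 0.44 (SD, n = 4 each), a fall of 3.01-fold (log2 fold change -1.59, SE 0.30, 95% interval -2.26 to -0.92, limma adjusted p = 0.0269, exact two-sided permutation p = 0.0286, the smallest that 4 against 4 arrays can give). A second probe, for another transcript of the gene, was well above background on 1 hCNR1+/+ array and 0 hCNR1-/- arrays and adds no value. The fall was -1.73 to -1.39 with each array left out in turn, and the adjusted p stayed below 0.05 only without replicate 4 of hCNR1+/+ (0.0384) or of hCNR1-/- (0.0220); its highest value was 0.0980, without hCNR1+/+ replicate 3.

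Cidec, whose protein joins lipid droplets so that one grows at the cost of the other, rose. Its signal was 3.42, 3.88, 3.72 and 3.60 in controls and 5.04, 4.76, 4.88 and 4.17 in hCNR1-/- mice. The groups did not overlap, and hCNR1-/- replicate 4 stood nearest to the controls. The mean went from 3.66 ± 0.19 to 4.71 ± 0.38 (SD, n = 4 each), 2.08-fold (log2 fold change 1.06, SE 0.24, 95% interval 0.52 to 1.59, limma adjusted p = 0.0427, exact permutation p = 0.0286). The dimmer of its probes was 0.68 higher on the log2 scale, with overlap between the groups (exact permutation p = 0.114). With 1 array left out the log2 fold change was 0.95 to 1.24, and the adjusted p was 0.00887 without hCNR1-/- replicate 4 and between 0.0777 and 0.125 without any other array.

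Elovl6, which lengthens saturated and monounsaturated fatty acids and is a classical target of SREBP-1, also rose. Its signal was 0.42, 0.79, 0.16 and -0.71 in controls and 2.16, 1.73, 2.45 and 1.00 in hCNR1-/- mice. The groups did not overlap, and replicate 4 was the lowest of both. The mean went from 0.16 ± 0.64 to 1.84 ± 0.63 (SD, n = 4 each), 3.18-fold (log2 fold change 1.67, SE 0.39, 95% interval 0.79 to 2.55, limma adjusted p = 0.0479, exact permutation p = 0.0286). The rise was 1.38 to 1.95 with 1 array left out, and the adjusted p was 0.0173 without hCNR1-/- replicate 4 and between 0.0649 and 0.133 without any other array.

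Fabp2, the intestinal fatty acid binding protein, passed the threshold of the study but not the adjusted one. Its signal was 1.21, 1.60, 1.21 and -0.02 in controls and 1.67, 2.23, 2.88 and 2.53 in hCNR1-/- mice. The groups did not overlap, though hCNR1-/- replicate 1 lay close to hCNR1+/+ replicate 2. The log2 fold change was 1.33 (SE 0.38, 95% interval 0.46 to 2.19, limma adjusted p = 0.0848, exact permutation p = 0.0286), and 0.98 without hCNR1+/+ replicate 4.

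**Figure D2:**
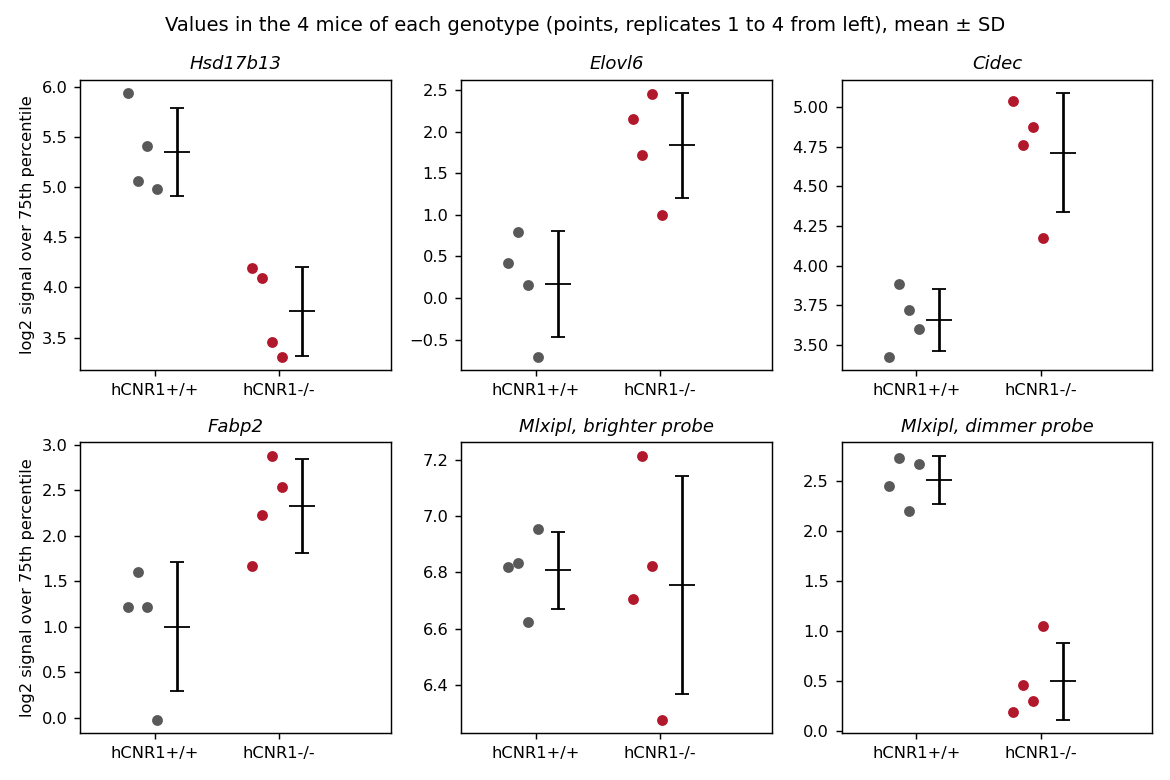
Log2 signal relative to the 75th percentile of the array (vertical axis, a separate scale in each panel) for Hsd17b13, Elovl6, Cidec, Fabp2 and both probes of Mlxipl; points are the mice of each genotype, replicates 1 to 4 from left, and bars the mean ± SD. The genotypes are apart in all panels but that of the brighter Mlxipl probe, where they overlap.

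Among the transcription factors, none of the 3 genes passed the test on its brightest probe. For Srebf1, which encodes SREBP-1, the signal was 1.53, 2.30, 1.98 and 3.07 in controls and 1.71, 2.16, 1.84 and 1.73 in hCNR1-/- mice. The hCNR1-/- mice lay within the range of the controls, of which replicate 4 was the highest (log2 fold change -0.36, SE 0.32, limma adjusted p = 0.547, exact permutation p = 0.40). For Pparg, the nuclear receptor of fat storage, the signal was 1.65, 1.66, 1.42 and 1.32 in controls and 2.22, 1.71, 1.44 and 1.70 in hCNR1-/- mice. The groups overlapped (log2 fold change 0.25, SE 0.22, limma adjusted p = 0.546, exact permutation p = 0.143).

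Mlxipl, the gene of the carbohydrate-sensing factor ChREBP, gave different answers by probe. The brighter probe read 6.82, 6.83, 6.62 and 6.96 in controls and 6.71, 7.22, 6.82 and 6.28 in hCNR1-/- mice. These groups overlapped (log2 fold change -0.05, SE 0.23, limma adjusted p = 0.917, exact permutation p = 0.83). The dimmer probe, with the same accession and well above background on all 8 arrays, read 2.45, 2.74, 2.20 and 2.67 in controls and 0.19, 0.46, 0.30 and 1.05 in hCNR1-/- mice. Here every hCNR1-/- mouse was below every control (log2 difference -2.01, SE 0.25, limma adjusted p = 0.00204 with each probe on its own, exact permutation p = 0.0286). In that fit of 19985 probes, 3.46% were lower and 4.45% higher at an adjusted p below 0.05, and of the 61 probes of the list that passed the filter, 2 were lower and 2 higher, those of Hsd17b13, Cidec and Elovl6 being the others. The difference of the dimmer probe was -2.20 to -1.91 with each array left out and -2.57 to -1.57 under the other scalings, background correction and deposited scores. Which transcript each probe reports was not analysed here.

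The enzymes that supply acetyl-CoA, malonyl-CoA and NADPH numbered 5, of which 4 were lower, 1 was higher and none passed the test. Acaca, the acetyl-CoA carboxylase of fatty acid synthesis, read 4.38, 4.87, 4.02 and 5.58 in controls and 5.34, 5.38, 5.33 and 4.23 in hCNR1-/- mice. In both genotypes replicate 4 stood apart, above the other controls and below the other hCNR1-/- mice (log2 fold change 0.35, SE 0.39, limma adjusted p = 0.629, exact permutation p = 0.457). A dimmer Acaca probe read -1.50, -1.14, -2.21 and -1.24 in controls and -0.50, -0.47, -0.68 and -0.68 in hCNR1-/- mice. On that probe the groups did not overlap, at a log2 difference of 0.94 (limma adjusted p = 0.0585 with each probe on its own). For Acly, which splits citrate to acetyl-CoA, the brighter probe was at -0.16 and the dimmer at 1.20 on the log2 scale, neither past the adjusted threshold. The log2 fold change was -0.46 for Acss2, which makes acetyl-CoA from acetate, and -0.32 for Acacb, the carboxylase at the mitochondrion. It was -0.03 for Me1, a source of NADPH. Dimmer probes of Acss2 and Acacb went the other way, at 0.16 and 0.10. Other probes of Me1 were lower, at -0.48 and -0.59. The count of lower genes thus depends on the probe taken.

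Fasn, the fatty acid synthase, read 1.75, 1.60, 1.73 and 2.63 in controls and 1.95, 2.87, 1.47 and 1.39 in hCNR1-/- mice. The ranges almost coincided (log2 fold change -0.01, SE 0.37, 95% interval -0.84 to 0.82, limma adjusted p = 0.992, exact permutation p = 0.971). Thrsp, a lipogenic cofactor, was at 0.26 with an interval of -0.91 to 1.42.

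All 3 tested desaturases were lower and none passed the test. Scd1, which makes monounsaturated fatty acids, read 5.97, 6.25, 6.75 and 8.14 in controls and 6.57, 6.71, 6.31 and 3.84 in hCNR1-/- mice. The first 3 mice of each genotype overlapped, and the groups came apart in replicate 4 alone (log2 fold change -0.92, SE 0.68, limma adjusted p = 0.468, exact permutation p = 0.457). Without replicate 4 of hCNR1-/- the log2 fold change was -0.25, and without replicate 4 of both genotypes 0.21. Fads1 and Fads2, which desaturate polyunsaturated fatty acids, were at -0.76 and -0.42. Scd2 was well above background on 1 array of each genotype and was not tested.

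Of the 5 elongases, 1 rose, Elovl6, and the other 4 did not pass the test. Elovl3 read 1.78, 0.90, 0.26 and 0.83 in controls and -0.06, 1.15, -0.60 and -2.00 in hCNR1-/- mice. The groups overlapped through hCNR1-/- replicate 2, and hCNR1-/- replicate 4 was the lowest (log2 fold change -1.32, SE 0.60, limma adjusted p = 0.238). Elovl2 and Elovl5, elongases of polyunsaturated fatty acids, were at -0.73 and -0.60, and Elovl1, which makes very long chains, at 0.30.

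The 7 genes of glycerolipid assembly gave no call, with 2 lower and 5 higher. Dgat2, which completes triglyceride, read 7.62, 7.71, 7.40 and 7.96 in controls and 7.42, 7.87, 7.06 and 7.59 in hCNR1-/- mice. The groups overlapped (log2 fold change -0.19, SE 0.23, limma adjusted p = 0.666, exact permutation p = 0.371). Dgat1, the other enzyme of that step, was at 0.02 with an interval of -0.39 to 0.44. Gpam, the mitochondrial acyltransferase that begins the pathway, was at 0.83 on the brighter probe and 1.14 on the dimmer one, with limma adjusted p = 0.250 for the gene and 0.0900 for the dimmer probe on its own. The others were Lpin1 at -0.81 and Lpin2 at 0.01, which are phosphatidate phosphatases, Agpat2 at 0.39 and Mogat1 at 0.19.

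Droplet formation and coat genes numbered 11, of which 1 fell (Hsd17b13), 1 rose (Cidec) and 9 did not pass the test. Plin2, the main perilipin of the hepatocyte droplet, read 7.52, 7.36, 6.91 and 6.68 in controls and 8.45, 8.15, 7.95 and 6.65 in hCNR1-/- mice. Of the hCNR1-/- mice, 3 were above every control and replicate 4 was below them (log2 fold change 0.68, SE 0.39, limma adjusted p = 0.345, exact permutation p = 0.200). Without that array the log2 fold change was 1.07 and the adjusted p 0.0307. The other perilipins were at -0.17 (Plin3), -0.39 (Plin4) and -0.17 (Plin5). Cidea and Cideb, of the family of Cidec, were at -0.04 and -0.46. Bscl2, the seipin of droplet budding, was at -0.20, and Fitm1 and Fitm2 were at 0.37 and 0.25.

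Of the 6 genes of lipolysis, 3 were tested and none passed. Pnpla2, the main triglyceride lipase of the cell, read 7.09, 7.28, 7.23 and 6.78 in controls and 7.36, 7.64, 7.23 and 7.06 in hCNR1-/- mice. The groups overlapped (log2 fold change 0.23, SE 0.21, limma adjusted p = 0.572, exact permutation p = 0.257). Its inhibitor G0s2 was at 0.34. Its activator Abhd5 was at 0.00, with hCNR1-/- replicates 1 to 3 above every control and replicate 4 below them. Pnpla3 stood well above background on no array, Pnpla5 was on 1 hCNR1+/+ array, and Lipe, the hormone-sensitive lipase, on 2 hCNR1+/+ arrays and 1 hCNR1-/- array.

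For uptake and binding, 7 of 8 genes were tested, of which 6 were lower and 1 was higher, with none past the adjusted threshold. Fabp1, the abundant fatty acid binding protein of liver, read 7.41, 8.09, 8.71 and 9.21 in controls and 7.45, 8.74, 8.99 and 7.22 in hCNR1-/- mice. Both genotypes covered nearly the same range (log2 fold change -0.25, SE 0.50, limma adjusted p = 0.799, exact permutation p = 0.686). The acyl-CoA synthetases and transporters Slc27a2, Slc27a4 and Slc27a5 were at -0.42, -0.02 and -0.15. Cd36, a fatty acid receptor, stood well above background on no array, so no fold is given.

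Fabp4 and Fabp5, which macrophages and fat cells also express, were at -0.71 and -0.40 on the log2 scale, neither past the test (limma adjusted p = 0.368 and 0.352). The markers of Kupffer cells were lower in the same direction. Of 15 such genes 11 were tested, all 11 were lower in hCNR1-/- and 2 fell at an adjusted p below 0.05, and their summed signal was 6.45 to 7.42 on the log2 scale in hCNR1+/+ and 5.71 to 6.16 in hCNR1-/- mice. The Kupffer markers Timd4, Cd163 and Fcgr1 stood well above background on no array. Of 14 endothelial markers 10 were tested, 7 were lower and none passed, with a summed signal of 5.78 to 6.78 and 6.03 to 8.37. Of 7 fat cell markers 2 were tested and none passed, at -0.22 to 0.62 and 0.28 to 1.20, and Adipoq, Plin1 and Lep stood well above background on no array. Each sum adds the intensities of 1 probe per listed gene, so the brightest probe weighs most. Cd68, the brightest Kupffer probe, read 5.72 to 6.56 in hCNR1+/+ and 5.15 to 5.34 in hCNR1-/- mice. Kdr, the brightest endothelial probe, read 5.21 to 6.31 and 5.61 to 8.18, the last in hCNR1-/- replicate 4. The sums are thus no measure of the amount of a cell type. The part of other cells in the values of the list was not tested.

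**Figure D3:**
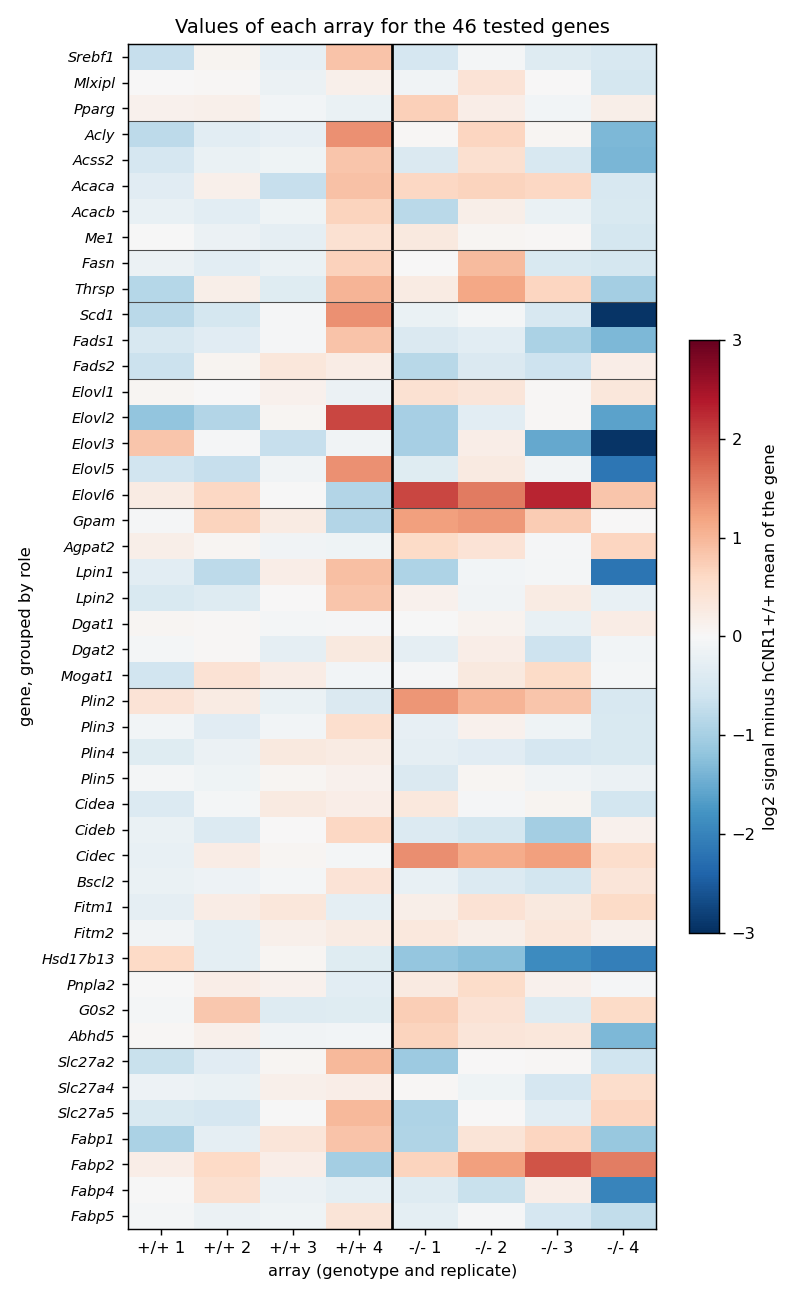
Log2 signal of each array minus the hCNR1+/+ mean of the gene (colour), for the 46 tested genes (rows, by role) and the 8 arrays (columns, replicates 1 to 4 of each genotype). The column of hCNR1+/+ replicate 4 is mostly red and that of hCNR1-/- replicate 4 mostly blue. Hsd17b13, Elovl6 and Cidec keep 1 colour over all hCNR1-/- mice, as do other genes, Fabp2, Srebf1 and Plin4 among them.

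Many values turned on the mice numbered 4. hCNR1+/+ replicate 4 was the highest of its group for 26 of the 46 genes (56.5%, beside 45.5% of all tested genes), Acly, Fasn, Scd1, Elovl2 and Elovl5 among them. hCNR1-/- replicate 4 was the lowest of its group for 28 (60.9%, beside 53.3% of all). Both were the dimmest arrays of their genotype, and whether brightness has a part in these values was not tested. Without both, the median log2 fold change of the list was 0.20, the same as that of all genes, with 18 genes lower and 28 higher. In that fit Hsd17b13 fell and 5 genes rose at an adjusted p below 0.05, Acaca, Cidec, Elovl6, Gpam and Plin2. Calls over the whole array grew as well, to 4.34% of all genes lower and 15.4% higher, against 2.17% and 10.9% of the list. With each array weighted by its agreement with its group, these 5 and Fabp2 rose and Hsd17b13 fell. In that fit 5.83% of all genes were lower and 19.7% higher, against 2.17% and 13.0% of the list.

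**Figure D4:**
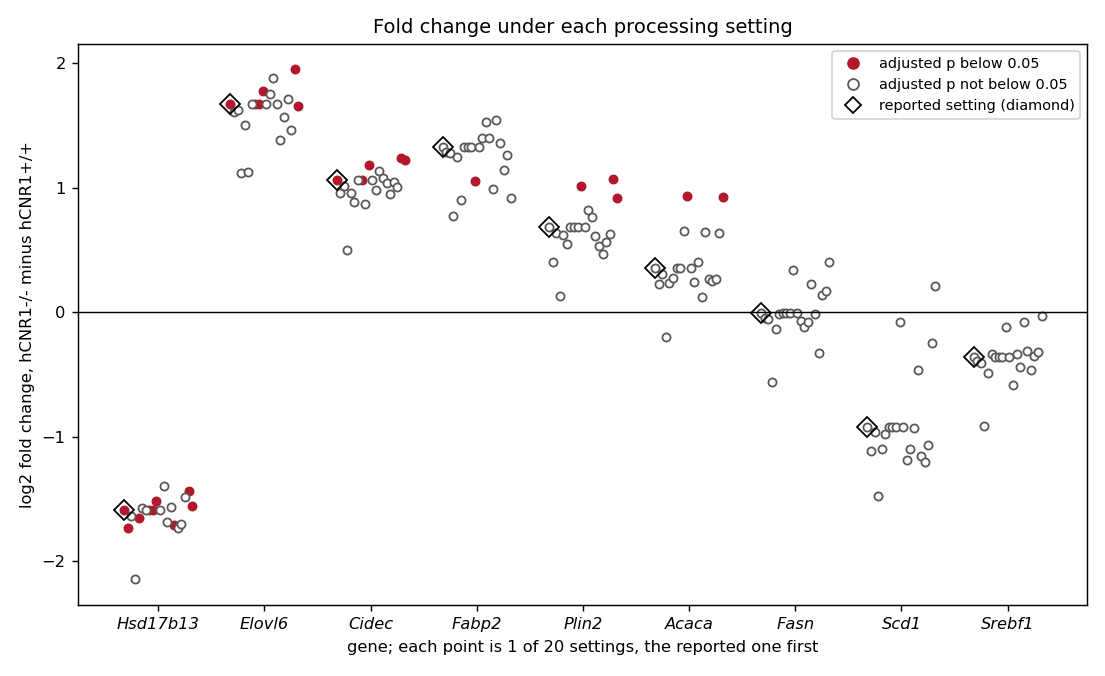
Log2 fold change (hCNR1-/- minus hCNR1+/+, vertical axis) of 9 genes under each of 20 settings (points, the reported one first and in a diamond; filled where the limma adjusted p is below 0.05). Hsd17b13 stays below 0 and Elovl6, Cidec, Fabp2 and Plin2 stay above it in all 20 settings, while Acaca, Fasn and Scd1 have points on both sides.

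A wider list of 81 other genes of the pathway was counted in the same way. Of 70 tested, 2 fell at an adjusted p below 0.05 and 1 rose (2.86% and 1.43%, beside 1.30% and 2.94% of all genes), with a median log2 fold change of 0.08. Vldlr, a receptor that takes up triglyceride-rich lipoproteins, read 1.08, 1.57, 1.97 and 3.07 in controls and -0.65, -0.43, 0.25 and 0.31 in hCNR1-/- mice. The groups were apart (log2 fold change -2.05, SE 0.42, limma adjusted p = 0.0337). Slc27a3, an acyl-CoA synthetase, read 0.07, -0.66, -0.33 and 0.02 in controls and -1.35, -1.15, -1.85 and -2.84 in hCNR1-/- mice. These also did not overlap (log2 fold change -1.57, SE 0.37, limma adjusted p = 0.0477). The Slc27a3 probe was well above background on 4 hCNR1+/+ arrays and 3 hCNR1-/- arrays. Lipa, the lysosomal acid lipase, rose by 0.98 on the log2 scale (SE 0.23, limma adjusted p = 0.0477), from a range of 1.28 to 1.72 in hCNR1+/+ to 2.03 to 2.79 in hCNR1-/- mice. With each array left out in turn, Vldlr passed the adjusted threshold without replicate 1 or 4 of the controls or replicate 4 of hCNR1-/-, and Slc27a3 and Lipa passed without hCNR1-/- replicate 4 alone.

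At the threshold of the study, 5 genes of the wider list were lower and 2 higher, which is 7.14% and 2.86% of the 70, beside 3.75% and 4.78% of all genes. Besides Vldlr and Slc27a3, the lower ones were Acss1, Insig2 and Hsd17b11, and the higher ones Acsl4 and Gpat2, none of them past the adjusted threshold. Acss1, a mitochondrial acetyl-CoA synthetase, read -1.57, -0.78, -0.34 and 0.50 in controls and -4.32, -3.45, -1.30 and -3.12 in hCNR1-/- mice. The groups overlapped through hCNR1-/- replicate 3, and the probe was well above background on 4 hCNR1+/+ arrays and 1 hCNR1-/- array (log2 fold change -2.50, SE 0.63, limma adjusted p = 0.0564). Acsl4, an acyl-CoA synthetase for arachidonate, read 1.93, 1.24, 0.02 and -2.14 in controls and 2.52, 2.49, 2.57 and 3.19 in hCNR1-/- mice. The groups did not overlap (log2 fold change 2.43, SE 0.74, limma adjusted p = 0.0971). The controls ranged widely, from 1.93 in replicate 1 to -2.14 in replicate 4. The Acsl4 probe was well above background on 3 hCNR1+/+ arrays and 4 hCNR1-/- arrays. Gpat2, an acyltransferase, read -2.18, -2.03, -1.60 and -0.57 in controls and -0.97, 0.06, -0.54 and 2.04 in hCNR1-/- mice. The groups overlapped through replicate 4 of the controls (log2 fold change 1.74, SE 0.62, limma adjusted p = 0.146). The Gpat2 probe was well above background on 3 hCNR1+/+ arrays and 4 hCNR1-/- arrays. Insig2, which retains the SREBP complex in the endoplasmic reticulum, was at -1.06 and Hsd17b11 at -1.05 on the log2 scale. Insig2 and Hsd17b11 are named after their values were seen. Hsd17b11, a droplet protein related to Hsd17b13, is its coding neighbour in RefSeq, and read 3.20, 3.14, 3.75 and 4.63 in controls and 2.78, 3.08, 2.89 and 1.77 in hCNR1-/- mice. Its groups did not overlap, by a margin that was small between hCNR1+/+ replicate 2 and hCNR1-/- replicate 2 (limma adjusted p = 0.164).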

How the data were processed

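Hepatocyte RNA of 4 hCNR1+/+ and 4 hCNR1-/- mice was labelled with Cy3 and hybridised to 1-colour Agilent arrays, grouped by the sample labels. The authors deposited the spot intensity of each array from Feature Extraction 12.0.3.1, corrected for background and not scaled between arrays, and a score for every spot, which differed by at most 0.00503 from a z-score of log intensity computed within the array. The deposited flags for background and outliers were used as filters, and that for saturation was counted. No array had a saturated spot.

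Log2 intensities were centred on the 75th percentile of an array's non-control spots. Outlier spots were left out and spots of a probe averaged. Of 55681 probes 28331 were named through RefSeq accessions of GRCm38.p6. Probes well above background on 4 or more of the 8 arrays were kept, and a gene was tested on the brightest of its kept probes. limma 3.58.1 in R 4.3.3 (lmFit, eBayes, two-sided) was adjusted by Benjamini-Hochberg over 11072 genes, and the fit was tested on simulated data. Single genes had an exact permutation test over 70 assignments. The study names no test for the arrays, and its threshold of fold change above 2 with p below 0.05 was counted too. No set test was run.

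Full values are given for genes past either threshold and for Srebf1, Mlxipl, Pparg, Fasn, Acaca, Scd1, Elovl6, Dgat2, Plin2, Cidec, Pnpla2, Cd36 and Fabp1; of the wider list, those at an adjusted p below 0.05 and the 5 largest changes past the study's threshold. The genes and lists were chosen with earlier results of these data known. Where nothing says how animals were drawn, p-values set the difference between the groups against the spread between these 8 mice only. The alternatives were other scalings, the deposited scores, normexp with an offset of 50, other filters and probe rules, array weights, the replicate block and each array left out; leaving out both replicates 4, and testing each probe on its own, were chosen after seeing the data. Precision is limited by the number of arrays.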

Additional observations from a re-analysis of the deposited data

Results flagged for a closer look

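Of 92 groups of 4 mice checked, 1 per tested gene and genotype, 4 held a mouse far from its group, and chance flags about 1 in 20 groups. Each is given by the gap to the nearest other mouse as a share of the range of the group. For Acaca, hCNR1-/- replicate 4 was at 4.23 beside 5.33 to 5.38 in the others (share 0.961). For Scd1, hCNR1-/- replicate 4 was at 3.84 beside 6.31 to 6.71 (0.858). For Abhd5, hCNR1-/- replicate 4 was at 1.92 beside 3.61 to 3.94 (0.839). For Fasn, hCNR1+/+ replicate 4 was at 2.63 beside 1.60 to 1.75 (0.853). The mean of the correlations of each array with every other array of its genotype was also checked, as a description across genes. For hCNR1-/- replicate 4 it was 0.946 over the 46 genes, beside 0.970 to 0.972 in the other 3 (share 0.930), and 0.942 over all tested genes, beside 0.972 to 0.975 (0.907).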

How the results depend on the processing

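Hsd17b13 kept its direction in all 19 alternatives (log2 fold change -2.14 to -1.39, adjusted p 0.00287 to 0.396), as did Elovl6 (1.11 to 1.95, 0.00213 to 0.817) and Cidec (0.50 to 1.24, 0.00155 to 0.863), and they missed the adjusted threshold in 11, 14 and 15 of them. The number of genes higher at an adjusted p below 0.05, 2 as reported, was 0 under quantile normalization, median scaling, no scaling, the deposited scores, normexp and no filter on dim probes, 1 with the mean of the probes of a gene, 6 with array weights, 5 without replicate 4 of both genotypes, and 0 to 3 with each array left out. The number lower, 1 as reported, was 0 under median scaling, no scaling, normexp and no filter, 2 with the mean of the probes (Mlxipl was added), and 0 to 1 with each array left out. At the threshold of the study, the number higher, 3 as reported, was 0 with no scaling, 1 under normexp and 2 to 5 with each array left out, and the number lower, 1 as reported, was 2 with no scaling and the mean of the probes and 1 to 2 with each array left out. Of the wider list, the number higher at an adjusted p below 0.05, 1 as reported, was 0 under quantile normalization, median scaling, no scaling, the deposited scores, normexp, no filter and the replicate block, 15 with array weights, 10 without replicate 4 of both genotypes and 0 to 3 with each array left out, and the number lower, 2 as reported, was 0 under median scaling, no scaling, normexp, no filter and the replicate block, 1 with the deposited scores and with all 8 arrays above background, 4 with array weights and 0 to 3 with each array left out. The median log2 fold change, -0.10 as reported, was -0.66 with no scaling, where that of all genes was -0.47, and 0.20 without replicate 4 of both genotypes. The labels do not say whether the replicate numbers pair the mice, and each number was also the column on the slide. Deviations of mice with the same number correlated at 0.211, -0.157, -0.053 and 0.017. So few correlations cannot decide whether mice were paired. With the replicate block, limma called 0 genes of the list at an adjusted p below 0.05 in either direction (Hsd17b13 0.0712, Elovl6 0.0747, Cidec 0.104) and 0 of all genes, and 2 lower and 3 higher genes of the list at the threshold of the study.

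Direction turned for genes that did not pass the test as reported: Acaca (-0.20), Pparg (-0.30) and Pnpla2 (-0.33) with no scaling, Pnpla2 under quantile normalization (-0.041), Fabp1 (0.073), Fasn (0.33) and Mlxipl (0.18) with array weights, and Fabp1 (0.32), Fasn (0.40), Mlxipl (0.16) and Scd1 (0.21) without replicate 4 of both genotypes. With each array left out Fabp1 was -0.57 to 0.039, Fasn -0.32 to 0.23 and Mlxipl -0.21 to 0.11. Of these, Acaca was higher past the adjusted threshold with array weights and without replicate 4 of both genotypes, and Mlxipl lower past it with the mean of its probes. The cause of these changes was not tested. Of the 13 genes with more than 1 probe past the filter, 9 had probes of the same sign and 4 (Abhd5, Acacb, Acly, Acss2) did not. Mlxipl counts among the 9, though its probes were far apart, at -0.05 and -2.01.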
